A study of Mus musculus with 8 samples.

Results

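TKO mouse embryonic stem cells, in which 3 DNA methyltransferases had been knocked out, were compared with J1 cells while DAXX was intact in both. The comparison used 4 of the 8 RNA-sequencing libraries of the study, chosen by line and DAXX status as the labels give them, with TKO set against J1 in the same medium. Its features were the repeat families and single repeat elements of the study's repeat table, and loci assembled in each of the 4 libraries and matched by position at 50% reciprocal overlap.

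The 4 libraries were TKO in regular medium, TKO in 2i, J1 in regular medium and J1 in 2i, with 1 library each. J1 is labelled wild type. Here 2i stands for 72 hours in embryonic stem cell medium with 3 additions, vitamin C at 100 µg/ml, the GSK3b inhibitor CHIR99021 at 3 µM and the MEK inhibitor PD0325901 at 1 µM. The other 4 libraries came from the DAXX knockouts of both lines in the same 2 media, and they entered the tests of repeats for their share of the spread. DAXX is a histone chaperone that works with ATRX. The study set out to compare expression of DAXX and ATRX targets in these lines. Each genotype was 1 line, and the labels do not say which 3 methyltransferases TKO lacks, whether it is a clone of J1 or how long the lines had been apart. No group had a replicate, so the media supplied the 2 pairs, and how far 2 lines of the same genotype would differ was not measured. The libraries held cytoplasmic RNA captured by its poly(A) tail, so transcripts that stay in the nucleus or lack a tail were under-represented.

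In mammalian cells DNA methylation helps to keep endogenous retroviruses and LINE1 retrotransposons silent, together with trimethylation of histone H3 on lysine 9. Mouse embryonic stem cells tolerate the loss of methylation, and in them many retroviral families stay repressed through the histone mark. Endogenous retroviruses consist of an internal part that encodes the viral proteins, marked "-int" in family names, between long terminal repeats that hold the promoter. LINE1 elements move through an RNA copy without such terminal repeats.

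Recovered library totals were 99.1 M reads in TKO regular and 73.8 M in TKO 2i, against 76.8 M in J1 regular and 67.4 M in J1 2i. The table listed 17857 elements of at least 5001 bp in 65 families, and 44 families reached a mean of 1 RPM (reads per M of the library total) over the 8 libraries. The share of all reads that fell in listed elements was 19.3% in TKO regular and 14.4% in TKO 2i, against 10.9% in J1 regular and 8.56% in J1 2i. Both TKO shares lay above the J1 share in the same medium. Levels of the Dnmt genes and Daxx, and markers of embryonic stem cells and of other cell types, were not analysed here because the loci carry no gene names. In bulk RNA, more cells that express a repeat and more RNA per cell cannot be told apart.

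Most families of repeats had more reads in TKO than in J1, and 3 families of endogenous retroviruses rose past the test. With edgeR's quasi-likelihood test and Benjamini-Hochberg adjustment at 0.05, 3 of 44 families were higher in TKO (6.82%) and 0 were lower (0%), and 13 families had p under 0.05 before adjustment. The 3 were MMERGLN-int, IAPEy-int and IAPLTR3-int, of which IAPEy-int averaged under 1 RPM in the J1 libraries with DAXX intact. The count was 0 without TKO regular or without J1 2i, 1 without TKO 2i, 2 without J1 regular, 5 without either J1 DAXX-knockout library and 12 or 13 without a TKO DAXX-knockout library. The TKO over J1 ratio was above 1 in both media for 39 families, in regular medium for 40 and in 2i for 42. Its median over the 44 families was 1.83 in regular medium and 1.56 in 2i. In most of the 44 families both TKO libraries lay above both J1 libraries, so this separation does not mark out a family. This general excess depended on the scaling. Fitted changes lay above 0 for 43 families when reads were set against library totals, with a median log2 change of 0.83, and for 24 families under TMM scaling on the repeats, with a median of 0.05. The summed level of the tested families was 193139 RPM in TKO regular and 144279 RPM in TKO 2i, against 108689 RPM in J1 regular and 85632 RPM in J1 2i.

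Young LINE1 families made up 88.5% of the TKO minus J1 difference in RPM in regular medium and 64.1% in 2i. They held 76.5% of the tested reads in TKO regular and 68.8% in TKO 2i, against 67.2% in J1 regular and 72.0% in J1 2i. Their share of the difference was thus above their share of J1 reads in regular medium and below it in 2i. L1Md_T held 54.5% of the difference in regular medium, where it had 35.0% of J1 reads, and 26.8% in 2i, where it had 42.5% of J1 reads. MMERGLN-int held 3.41% of the difference in regular medium and 16.5% in 2i, with 0.212% of J1 reads in regular medium and 0.837% in 2i.

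**Figure D1:**
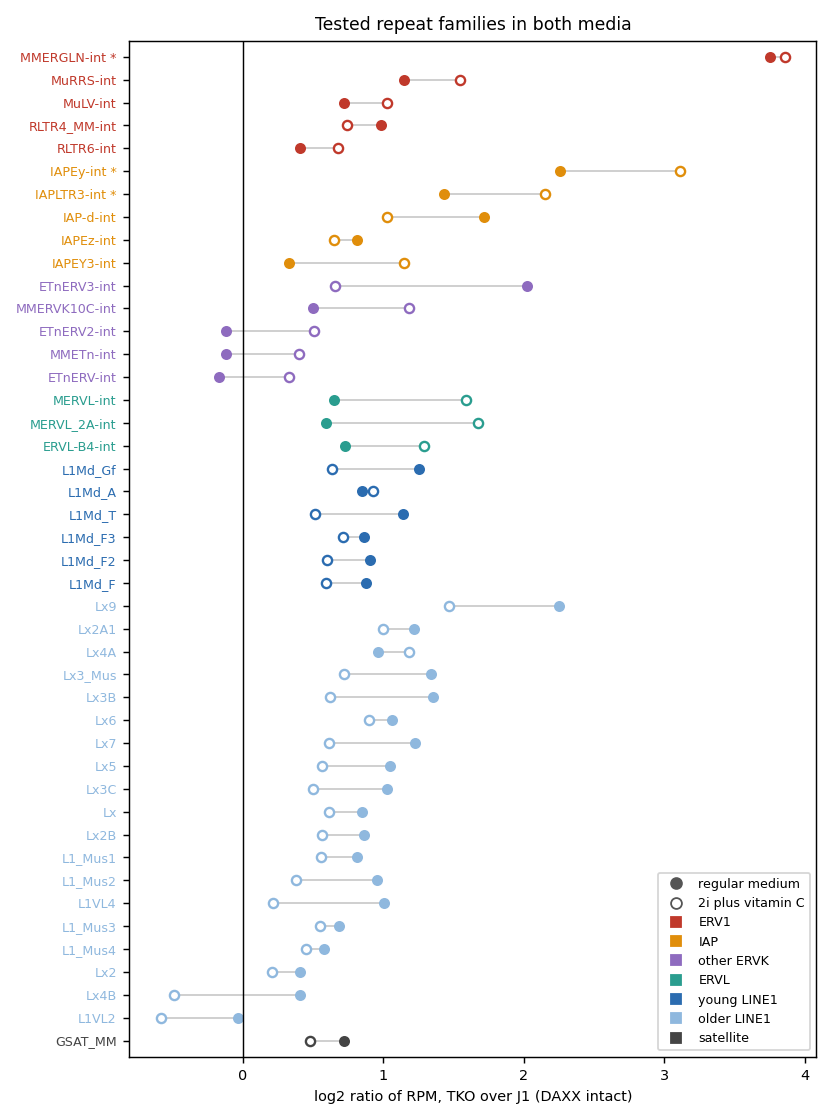
Log2 ratio of RPM in TKO over J1 for each of the 44 tested families (rows, coloured by class), in regular medium (filled) and in 2i plus vitamin C (open), 1 library per line and medium; a star marks an edgeR adjusted p under 0.05. MMERGLN-int lies farthest right in both media, and ETnERV-int, ETnERV2-int and MMETn-int lie on both sides of 0.

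Among ERV1 families, which are gammaretrovirus-like, MMERGLN-int stood far above the rest. MMERGLN-int is the internal part of the GLN family of mouse endogenous retroviruses. It had 3106 RPM in TKO regular and 10417 RPM in TKO 2i, against 230.1 RPM in J1 regular and 717 RPM in J1 2i. Even the lower TKO library lay above the higher J1 library. The ratio was 13.5 in regular medium and 14.5 in 2i, and the fitted log2 change was 3.80 ± 0.50 (SE, edgeR adjusted p = 0.00325). Counting error was small beside this, with an exact Poisson 95% interval of 3095 to 3117 RPM in TKO regular and of 227 to 233 RPM in J1 regular. Such intervals cover counting error only. The adjusted p passed 0.05 in 14 of 17 alternatives. It was 0.0858 without J1 2i, 0.0746 without TKO regular and 0.16 without the medium term. The fitted log2 change stayed between 2.90 and 4.12 over all 17.

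The other 4 ERV1 families were 1.33-fold to 2.22-fold in regular medium and 1.60-fold to 2.92-fold in 2i, and none passed the test. MuRRS-int, a retrovirus-related sequence, had 66.5 RPM in TKO regular and 35.6 RPM in TKO 2i, against 30.0 RPM in J1 regular and 12.2 RPM in J1 2i (edgeR adjusted p = 0.144). At least 99.97% of its reads in each library fell in 1 element. RLTR4_MM-int, related to murine leukaemia virus, had 1824 RPM in TKO regular and 2137 RPM in TKO 2i, against 921 RPM in J1 regular and 1276 RPM in J1 2i. The TKO libraries lay above both J1 libraries for both families. MuLV-int and RLTR6-int were 1.65-fold and 1.33-fold in regular medium and 2.04-fold and 1.60-fold in 2i.

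Intracisternal A particle (IAP) families are the retroviruses best known to depend on methylation in somatic mouse cells. All 5 tested had more RPM in TKO in both media. The test was passed by 2 of them, and both were of low abundance. IAPEy-int, an IAP type, had 3.18 RPM in TKO regular and 11.02 RPM in TKO 2i, against 0.664 RPM in J1 regular and 1.28 RPM in J1 2i. The exact Poisson 95% intervals were 2.84 to 3.55 RPM and 10.3 to 11.8 RPM in the TKO libraries and 0.494 to 0.873 RPM and 1.02 to 1.58 RPM in the J1 libraries. Over the J1 libraries with DAXX intact this family averaged under 1 RPM, so it reached the minimum for testing only through the other libraries. The fitted log2 change was 2.67 (edgeR adjusted p = 0.00861). It passed in 11 of 16 alternatives. It did not pass under TMM (adjusted p = 0.0523), without J1 2i (0.192), without TKO regular (0.0816), without TKO 2i (0.0663) or without the medium term (0.16).

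IAPLTR3-int had 4.88 RPM in TKO regular and 8.51 RPM in TKO 2i, against 1.81 RPM in J1 regular and 1.91 RPM in J1 2i. Both TKO libraries lay above both J1 libraries, as in most tested families. The fitted log2 change was 1.77 (edgeR adjusted p = 0.0321), and it passed in 9 of 16 alternatives. Without TKO regular the adjusted p was 0.17, without TKO 2i 0.145, without J1 regular 0.128 and without J1 2i 0.422. It was 0.286 with TMM, 0.311 with median scaling and 0.16 without the medium term.

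IAPEz-int, the abundant autonomous IAP family, had 3620 RPM in TKO regular and 4767 RPM in TKO 2i, against 2061 RPM in J1 regular and 3029 RPM in J1 2i. The ratio was 1.76 in regular medium and 1.57 in 2i (edgeR adjusted p = 0.287), and the fitted change of log2 0.74 was −0.04 under TMM and −0.05 under median scaling. IAP-d-int had 6.97 RPM in TKO regular and 8.25 RPM in TKO 2i, against 2.12 RPM in J1 regular and 4.05 RPM in J1 2i. IAPEY3-int was 1.26-fold in regular medium and 2.21-fold in 2i. Neither passed the test.

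**Figure D2:**
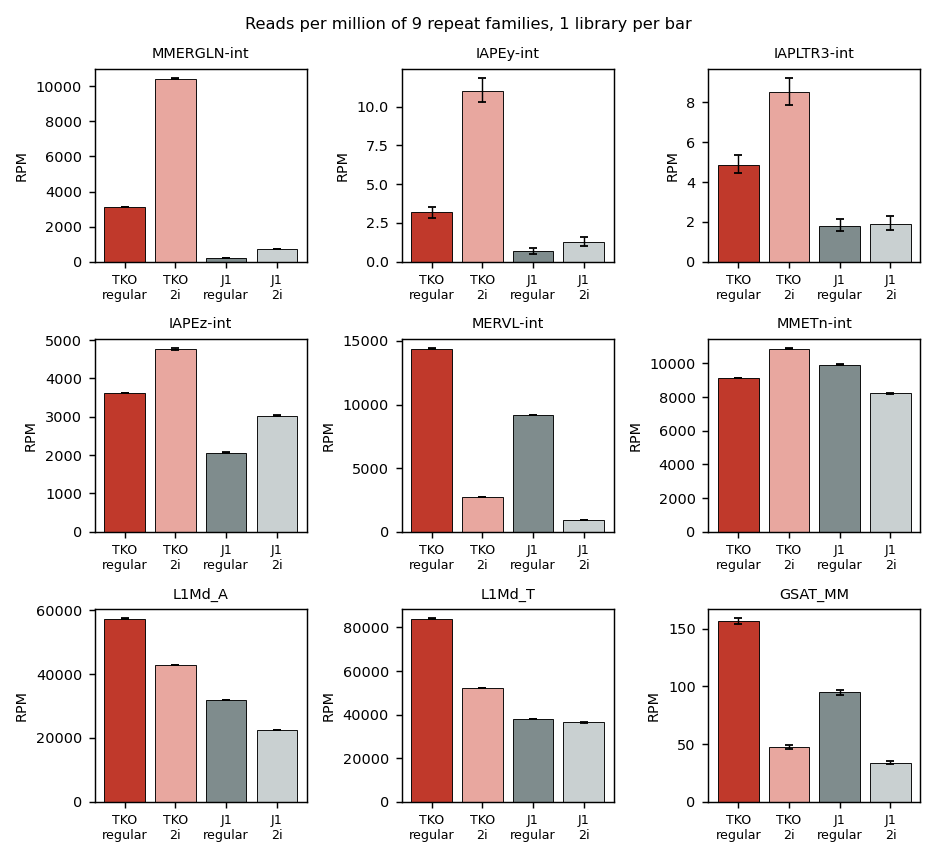
RPM of 9 families in TKO regular, TKO 2i, J1 regular and J1 2i, 1 library per bar, each axis from 0; error bars are exact Poisson 95% intervals for counting error alone. Both TKO bars exceed both J1 bars for MMERGLN-int, IAPEy-int, IAPLTR3-int, IAPEz-int, L1Md_A and L1Md_T, but not for MERVL-int, MMETn-int and GSAT_MM.

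Of the other ERVK families none passed the test. ETnERV3-int had 18.8 RPM in TKO regular and 7.93 RPM in TKO 2i, against 4.62 RPM in J1 regular and 5.02 RPM in J1 2i (edgeR adjusted p = 0.137). MMERVK10C-int, a betaretrovirus-like family, had 318.9 RPM in TKO regular and 142 RPM in TKO 2i, against 225.4 RPM in J1 regular and 62.4 RPM in J1 2i. Early transposons are transcribed in early embryos, and MMETn-int and ETnERV2-int were abundant in all 4 libraries. MMETn-int had 9145 RPM in TKO regular and 10866 RPM in TKO 2i, against 9923 RPM in J1 regular and 8225 RPM in J1 2i. The TKO library was the lower one in regular medium, with a ratio of 0.922, and the higher one in 2i, with a ratio of 1.32. The fitted log2 change was 0.15, and both TMM and median scaling gave −0.60. ETnERV2-int and ETnERV-int had the same pattern, with ratios of 0.921 and 0.891 in regular medium and 1.42 and 1.26 in 2i.

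MERVL, an ERVL family known for its transcription in 2-cell embryos and in rare stem cells that resemble them, had far fewer reads in 2i than in regular medium in both lines. MERVL-int had 14387 RPM in TKO regular and 2722 RPM in TKO 2i, against 9185 RPM in J1 regular and 902 RPM in J1 2i. The lower TKO library lay below the higher J1 library, so the lines overlapped across media but not within them. The TKO over J1 ratio was 1.57 in regular medium and 3.02 in 2i, and the test was not passed (edgeR adjusted p = 0.269). MERVL_2A-int had 178 RPM in TKO regular and 36.5 RPM in TKO 2i, against 118 RPM in J1 regular and 11.5 RPM in J1 2i, with ratios of 1.51 and 3.19.

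All 6 young LINE1 families had more RPM in TKO in both media, between 1.80-fold and 2.38-fold in regular medium and between 1.43-fold and 1.91-fold in 2i, and none passed the test. L1Md_A, 1 of the young families of mouse LINE1, had 57403 RPM in TKO regular and 42796 RPM in TKO 2i, against 31885 RPM in J1 regular and 22462 RPM in J1 2i (edgeR adjusted p = 0.144). L1Md_T had 84104 RPM in TKO regular and 52134 RPM in TKO 2i, against 38055 RPM in J1 regular and 36410 RPM in J1 2i (adjusted p = 0.170). The TKO libraries of both families lay above both J1 libraries.

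L1Md_Gf had 1939 RPM in TKO regular and 1203 RPM in TKO 2i, against 814 RPM in J1 regular and 773 RPM in J1 2i. L1Md_F had 293 RPM in TKO regular and 209 RPM in TKO 2i, against 159 RPM in J1 regular and 139 RPM in J1 2i, and its fitted log2 change of 0.74 was −0.04 under TMM. Under TMM 4 of the 6 young families were fitted above 0. Older LINE1 families, named Lx, L1_Mus or L1VL and largely broken copies, had a median ratio of 1.95 in regular medium and 1.48 in 2i over 19 families. Of these, 17 were above 1 in both media and 0 passed the test, while 5 had p under 0.05 before adjustment. Of the 19, 18 were fitted above 0 by library totals and 8 under TMM. Lx9 had the highest ratios among them, 4.76 in regular medium and 2.76 in 2i, with 92.8% of its reads in TKO regular in 1 element.

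GSAT_MM, the major satellite of pericentromeric heterochromatin, had 157 RPM in TKO regular and 47.3 RPM in TKO 2i, against 94.8 RPM in J1 regular and 33.9 RPM in J1 2i (edgeR adjusted p = 0.225). All of these reads came from 1 listed element. The fitted log2 change was 0.60 by library totals and −0.17 under TMM.

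The size of the ratio was set against the medium. It was larger in regular medium for 23 of 25 LINE families and larger in 2i for 14 of 18 LTR families. The test of the difference between the media, a DNMT by medium term that pools both DAXX states and leaves 2 residual degrees of freedom, called 0 of 44 families (edgeR). Before adjustment 4 families had p under 0.05, and DESeq2 called 1. The pattern by class is therefore a description of these libraries.

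At single elements the excess, set against library totals, was found at most tested copies of most families. Of 17857 listed elements, the 11322 tested were those with a mean RPKM (RPM per kilobase of element) of at least 0.1. Among them 10374 (91.6%) had more RPM in TKO in both media, and 78 had less in both. L1Md_A and L1Md_T elements, most of which were higher, made up 3065 and 4951 of those tested. The share higher in both media was 60.7% of 168 older LINE1 elements, 55.9% of 145 elements of other ERVK families, 45.2% of 31 RLTR6-int elements and 17.6% of 51 ETnERV2-int elements. The median log2 ratio was 0.97 in regular medium and 0.73 in 2i. edgeR called 86 elements higher in TKO (0.760%) and 0 lower (0%). How reads that match several copies were placed is not given in the sources used here, so elements of a family are not independent. Under TMM 2 elements were called, both of MMERGLN-int. The count was 45 without J1 regular, 11 without J1 2i, and 5892 and 5681 without a J1 DAXX-knockout library.

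L1Md_A elements moved within a narrow band, with a median log2 ratio of 0.89 in regular medium and 0.90 in 2i (SD over 3065 elements 0.19 and 0.25). For L1Md_A 3048 of 3065 elements were above 0 in both media. L1Md_T elements had a median of 1.18 in regular medium and 0.59 in 2i, and 91.6% of the 4951 had the larger ratio in regular medium. Elements of MERVL-int had medians of 0.65 in regular medium and 1.71 in 2i, and 573 of 575 were above 0 in both. IAPEz-int elements had medians of 0.94 and 0.84, and 778 of 804 were above 0 in both. Elements of ETnERV2-int had medians of −0.19 in regular medium and 0.51 in 2i.

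For the pair of largest LINE1 families these medians were close in longer and shorter elements. Elements of L1Md_T at or above the family's median length of 6072 bp had a median log2 ratio of 1.19 in regular medium and 0.60 in 2i, and shorter ones had 1.17 and 0.58. For L1Md_A, split at 6038 bp, the values were 0.89 and 0.92 in the longer elements and 0.88 and 0.89 in the shorter.

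**Figure D3:**
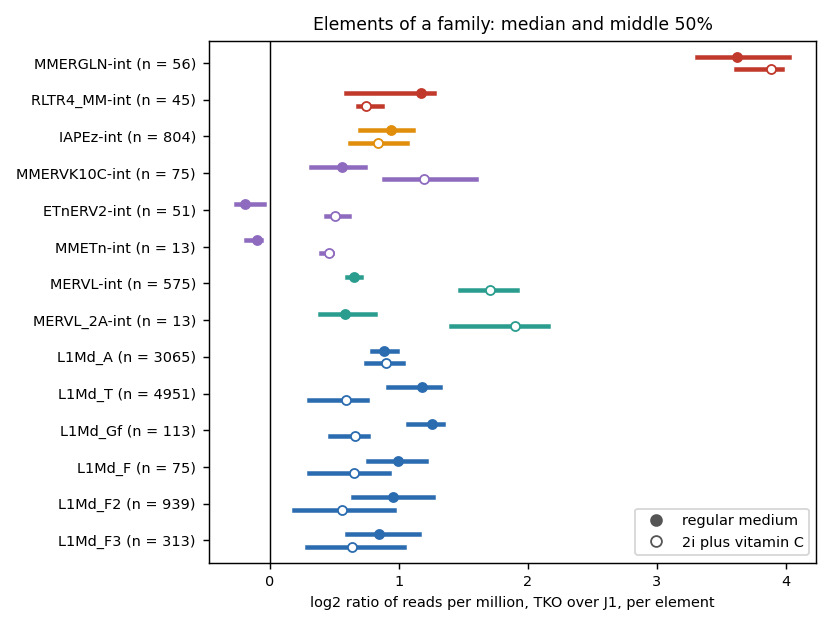
Log2 ratio of RPM in TKO over J1 per element (x axis) for 14 families, in regular medium (filled) and in 2i plus vitamin C (open); points are medians and bars the middle 50% of the n tested elements. The MMERGLN-int medians of 3.62 and 3.89 lie apart from those of the other families shown.

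Of the 86 called elements 53 belonged to MMERGLN-int, which had 56 tested elements of 88 listed. Of the 56, 53 averaged at least 0.1 RPKM in the J1 libraries alone, and 50 of those 53 were called. The median level of its tested elements was 6.41 RPKM in TKO regular and 22.8 RPKM in TKO 2i, against 0.51 RPKM in J1 regular and 1.58 RPKM in J1 2i. Above 10 RPKM stood 18 elements in TKO regular and 40 in TKO 2i, against 0 in each J1 library. The highest element reached 22.97 RPKM in TKO regular and 67.23 RPKM in TKO 2i, and the highest J1 values were 1.82 and 4.63 RPKM. No single copy held most of the reads as they were assigned. The top element held 5.59% of the family's reads in TKO regular and 4.88% in TKO 2i, against 5.84% in J1 regular and 4.86% in J1 2i. Since the placement of reads that match several copies is not given, the number of transcribed copies cannot be read from these values. The tested elements at or above 7550 bp all passed (29 of 29), and 24 of the 27 shorter ones did.

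The highest of these elements by level was the MMERGLN-int copy at chr6:58767667-58775223 (mm9), with 17202 reads in TKO regular and 37479 in TKO 2i, against 567 in J1 regular and 1989 in J1 2i. Its log2 change was 4.36 ± 0.53 (SE, edgeR adjusted p = 3.8e-12). The copy at chr1:52369985-52377544 had 7207 reads in TKO regular and 11851 in TKO 2i, against 247 in J1 regular and 691 in J1 2i, with a log2 change of 4.28 ± 0.62 (edgeR adjusted p = 5.6e-09). Under TMM the edgeR adjusted p was 0.0528 for both, and without J1 2i it was 0.0785 for the copy on chromosome 1. Overlaps with the authors' assembly were taken from groups of loci with at most 1 locus in each of these 4 libraries. No locus of such groups lay over either copy. Of the 53 called copies 6 (11.3%) lay over a locus assembled in a TKO library and 4 (7.55%) over one assembled in a J1 library.

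The 3 tested copies that were not called were looked at after their values were seen. They lay at chr1:180153250-180158857, chr4:11103617-11111018 and chr12:82525504-82530994. The copy on chromosome 4 had 2.69 RPKM in TKO regular and 0.90 RPKM in TKO 2i, against 1.82 RPKM in J1 regular and 1.16 RPKM in J1 2i. The copy on chromosome 1 had 0.12 RPKM in both TKO libraries, against 0.16 RPKM in J1 regular and 0.20 RPKM in J1 2i. All 3 lay over an assembled locus, whereas most called copies did not.

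**Figure D4:**
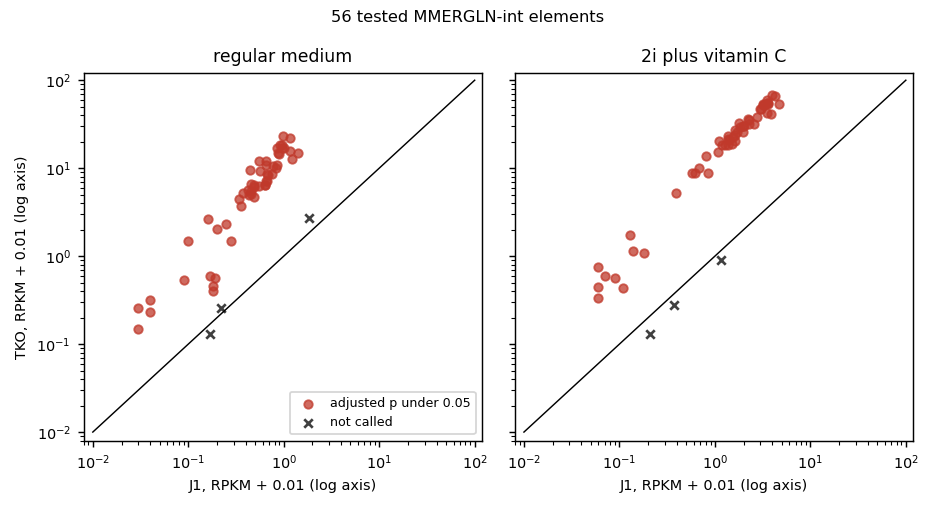
RPKM plus 0.01 of the 56 tested MMERGLN-int elements in TKO (y, log axis) against J1 (x, log axis), in regular medium (left) and in 2i plus vitamin C (right); the line marks equal values. The 53 called elements (circles) lie above the line in both media, and the 3 others (crosses) lie near it.

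The other 33 called elements came from 15 families. L1Md_F2 gave 11 of 939 tested, beside 86 of 11322 over all tested elements. Some of the 11 averaged under 0.1 RPKM in J1, such as the element at chr16:73568126-73573388, with 0.04 RPKM in each J1 library. Those reached the minimum only through the TKO or DAXX-knockout libraries, so the 11 are not read as a share. IAPEy-int gave 3. These had 0.05 to 0.44 RPKM in the TKO libraries, against 0.01 to 0.05 RPKM in the J1 libraries, so they did not reach the minimum of 0.1 RPKM in J1 alone, and their number is not read as a share. Of the 143 IAPEy-int elements listed, 16 lay outside random scaffolds, and elements on random scaffolds had 0 reads. Of those 16, 13 had more RPM in TKO in both media. The families ETnERV3-int, IAP-d-int, L1Md_F3, L1Md_T, L1_Mus1 and RLTR6-int gave 2 each, and ETnERV2-int, IAPEz-int, IAPLTR3-int, L1Md_A, L1_Mus3, Lx9 and MMERVK10C-int gave 1 each.

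The largest fitted change was at an IAP-d-int element at chr11:61205942-61211060, with 8 reads in TKO regular and 89 in TKO 2i, against 1 in J1 regular and 2 in J1 2i. The 8 reads against 1 in regular medium leave that ratio poorly fixed, and the fitted log2 change was 4.44 ± 0.90 (SE, edgeR adjusted p = 1.7e-04). It lost the call in 5 of 16 alternatives, with an adjusted p of 0.138 by DESeq2, 0.995 under TMM, 1.00 under median scaling, 0.542 without J1 2i and 0.382 without TKO 2i, and limma on log2(RPKM + 0.1) gave a log2 change of 0.92. The IAP-d-int element at chr9:59218301-59223373 had 204 reads in TKO regular and 111 in TKO 2i, against 14 in J1 regular and 11 in J1 2i (log2 change 3.35, edgeR adjusted p = 1.4e-07). An L1Md_F2 element at chr16:73568126-73573388 had 152 reads in TKO regular and 164 in TKO 2i, against 16 in J1 regular and 13 in J1 2i (log2 change 3.22, edgeR adjusted p = 3.5e-05). The call was lost in 4 of 16 alternatives for the element on chromosome 9 and in 6 of 16 for that on chromosome 16, TMM, median scaling, the additive terms and the omission of J1 2i among them for both. In the J1 libraries with DAXX intact these 3 elements had at most 0.04 RPKM. They reached the minimum of 0.1 RPKM only through the TKO or DAXX-knockout libraries. All 3 lay over a locus assembled in at least 1 TKO library.

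Of the 33 called elements outside MMERGLN-int, 18 (54.5%) lay over a locus assembled in a TKO library and 6 (18.2%) over one assembled in a J1 library. Among all tested elements these shares were 10.5% and 8.74%. The called elements had more reads in TKO, and the loci were assembled from the same libraries. The overlap is therefore not independent of the calls. Many of the 33 also averaged under 0.1 RPKM in the J1 libraries with DAXX intact. Those reached the minimum only through the TKO or DAXX-knockout libraries, so these shares are not compared.

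The same contrast in cells without DAXX gave other values. Over the 44 families the median TKO over J1 ratio with DAXX knocked out was 1.08 in regular medium and 0.673 in 2i, and 11 families were above 1 in both media. MMERGLN-int was above 1 there too, at 6.63-fold in regular medium and 2.66-fold in 2i, and IAPEy-int at 7.998-fold and 4.30-fold. L1Md_T was 0.964-fold in regular medium and 0.387-fold in 2i without DAXX, and GSAT_MM was 0.502-fold and 0.186-fold. Without DAXX, L1Md_T had 39371 RPM in TKO regular and 23217 RPM in TKO 2i, against 40848 RPM in J1 regular and 60037 RPM in J1 2i. The share of reads in listed elements without DAXX was 12.0% in TKO regular and 8.28% in TKO 2i, against 11.1% in J1 regular and 15.2% in J1 2i. In all, 13 families lay above 1 in both media with DAXX and below 1 in both without it. The difference of the 2 effects was tested after the data were seen. edgeR called 0 of 44 families and DESeq2 called 23, and 19 had an edgeR p under 0.05 before adjustment. The difference was log2 2.32 for GSAT_MM, 1.82 for MMERGLN-int and 1.59 for L1Md_T (edgeR adjusted p = 0.110 for each). Its median over the families was 1.20 by library totals, 0.45 under TMM and 0.12 under median scaling.

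Loci assembled by the authors moved in both directions. Of 45116 groups of loci 10961 had 1 locus in each of the 4 libraries, and 10733 reached a mean FPKM (fragments per kilobase of transcript, scaled to the size of the library) of 1. The TKO minus J1 difference in log2(FPKM + 1) had a median of 0.0035 in regular medium and −0.034 in 2i. limma called 49 loci higher in TKO (0.457%) and 22 lower (0.205%), and 1108 had p under 0.05 before adjustment. The smallest called differences were log2 1.51 upward and −1.52 downward. These calls rest on 1 residual degree of freedom and on a spread borrowed from the other loci. On simulated loci this fit made more false calls than its threshold allows. It called 0 loci when the 8 libraries were fitted together, 0 without the medium term and 1 when each library was centred on its median.

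The locus at chrX:16709201-16858683 (mm9) had 11.8 FPKM in TKO regular and 20.1 FPKM in TKO 2i, against 0.878 FPKM in J1 regular and 1.26 FPKM in J1 2i. Its difference was log2 2.99 ± 0.33 (SE, limma adjusted p = 4.0e-04). A short locus at chr1:155723475-155723650 had 1278 FPKM in TKO regular and 144 FPKM in TKO 2i, against 58.7 FPKM in J1 regular and 48.6 FPKM in J1 2i (log2 2.98, limma adjusted p = 0.00966). The largest called decrease was at chr10:127927916-127935726, with 3.92 FPKM in TKO regular and 6.66 FPKM in TKO 2i, against 71.7 FPKM in J1 regular and 114 FPKM in J1 2i (log2 −3.89, limma adjusted p = 1.7e-05). The locus at chr4:83358586-83359001 had 11.6 FPKM in TKO regular and 56.7 FPKM in TKO 2i, against 113 FPKM in J1 regular and 394 FPKM in J1 2i (log2 −2.98, limma adjusted p = 4.0e-04). At all 4 loci both TKO libraries lay on the same side of both J1 libraries. The call on chromosome 10 passed under median centring, and the other 3 did not.

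Per the authors' own FPKM bounds, TKO and J1 were apart in the same direction in both media for 64 of the 71 called loci. Over all tested loci these bounds were apart in both media with TKO higher for 1041, with TKO lower for 1204 and with opposite directions for 1571. At least 2-fold in both media, 89 loci were higher in TKO, 43 were lower and 40 moved in opposite directions.

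**Figure D5:**
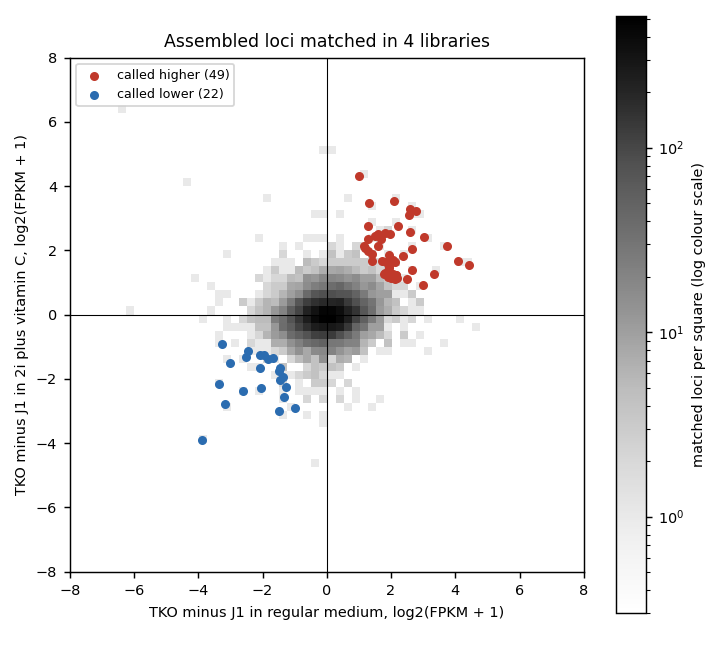
TKO minus J1 difference in log2(FPKM + 1) of the matched loci in regular medium (x) and in 2i plus vitamin C (y); grey squares give the number of loci on a log colour scale and points mark called loci. The 49 loci called higher lie upper right, and the 22 called lower lie lower left.

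Of the 71 called loci 4 (5.63%) overlapped a listed element, and of all 10733 tested loci 503 (4.69%) did. The called loci were shorter, with a median width of 6764 bp against 19503 bp over all, so these shares are not compared. Over those 503 loci the median difference was log2 0.21 in regular medium and −0.017 in 2i. Loci assembled in both TKO libraries and in neither J1 library numbered 1354, and 58 of them (4.28%) overlapped a listed element, 44 being young LINE1. Loci assembled in both J1 libraries and in neither TKO library numbered 862, and 23 of them (2.67%) overlapped a listed element, 14 being young LINE1. Of the 10961 loci assembled in all 4 libraries, 505 (4.61%) overlapped a listed element, 335 of them over young LINE1. Library depth and locus width were not matched between these sets, so these shares are not compared either. Of the 11322 tested elements, 73 (0.645%) lay over a locus assembled in both TKO libraries alone and 28 (0.247%) over one assembled in both J1 libraries alone.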

How the data were processed

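Poly(A) RNA of the cytoplasm was sequenced with dUTP-marked second strands, per the labels' protocols. The submitters' processing notes name mm9, Cufflinks, Cuffdiff, Bowtie2 2.2.4 and TopHat without their roles. The repeat table holds, per the file headers, read counts and RPKM of each element, and the deposited locus files hold FPKM with confidence bounds by the authors. Elements start at 0-based positions in the table and are given here from 1; for loci the files do not state this.

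Library totals were recovered from the deposited counts and RPKM, and recomputed RPKM lay within 0.011 of those deposited for 100% of elements. Counts were summed by family. Families of at least 1 RPM and elements of at least 0.1 RPKM, on average over 8 libraries, were tested with edgeR 4.0.16 (R 4.3.3; quasi-likelihood, line and medium as terms, 3 residual degrees of freedom, recovered totals as offsets). Loci of at least 1 FPKM were tested with limma 3.58.1 on log2(FPKM + 1) in the 4 libraries, which understates folds of low loci. All tests were two-sided, adjusted by Benjamini-Hochberg over all features tested, with a threshold of 0.05. Alternatives were TMM and median-of-ratios scaling, DESeq2 1.42.0, limma, other filters, pseudocounts, overlaps and terms, and leaving out each library. The fits were tested on simulated data. Overlaps of elements with loci, and loci assembled in only some libraries, were taken from groups with at most 1 locus per library. Named families were the called ones and a list of 16, named elements the 5 largest called changes with at most 2 of a family, and named loci the 2 largest each way. Families outside the list, and the copies of MMERGLN-int that were not called, were named after their values were seen. Members, classes and lists were chosen with earlier results of these data known. Tables were handled in pandas 2.3.3 (Python 3.11.15).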

Additional observations from a re-analysis of the deposited data

Results flagged for a closer look

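In 4 families the TKO over J1 ratio lay on opposite sides of 1 in the 2 media. It was 1.26 in 2i and 0.891 in regular medium for ETnERV-int, 1.42 and 0.921 for ETnERV2-int, and 1.32 and 0.922 for MMETn-int. For Lx4B it was 0.713 in 2i and 1.33 in regular medium. The DNMT by medium term called none of these 4 (edgeR), as it called 0 of 44 families. Before adjustment 4 other families of the 44 had p under 0.05, namely IAPEY3-int, IAP-d-int, Lx3B and Lx7. DESeq2 called 1 of the 44.

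Of the 13 families that lay above 1 in both media with DAXX intact and below 1 in both with DAXX knocked out, 5 were on the list of named families. The difference of the 2 effects was log2 2.32 for GSAT_MM, 1.59 for L1Md_T and 1.59 for L1Md_F (edgeR adjusted p = 0.110 each). It was log2 1.66 for MERVL-int and 1.60 for MERVL_2A-int (edgeR adjusted p = 0.229 each). Each of these rests on 1 library per group.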

How the results depend on the processing

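Counts of calls moved with the settings, and the causes were not tested. The 3 called families became 1 under TMM, 23 with DESeq2, 27 in a fit of the 4 libraries, 5 with additive terms, 0 with no medium term and 1 with a minimum of 10 RPM, and 0 to 13 when 1 library was left out (0 without J1 2i or without TKO regular, 1 without TKO 2i, 5 without either J1 DAXX-knockout library, 12 and 13 without a TKO DAXX-knockout library). The 86 called elements became 2 under TMM, 38 under median scaling, 8808 in the 4 libraries and 50 with a minimum of 1 RPKM, and 11 to 5892 when 1 library was left out (11 without J1 2i, 45 without J1 regular, 5892 and 5681 without a J1 DAXX-knockout library). The 71 called loci became 19 with a pseudocount of 0.1, 44 with no filter, 37 with a minimum of 5 FPKM, 1 with median centring, 0 in 8 libraries and 0 with no medium term, and 0 to 0 when 1 of 8 libraries was left out. The count for the difference between media was 1 with DESeq2 and 0 to 0 with 1 library left out, and for the difference with DAXX status it was 23 with DESeq2 and 0 to 24 with 1 library left out (24 when the regular-medium library of the J1 knockout of DAXX was omitted, and 12 and 6 when the regular and 2i libraries of the TKO knockout of DAXX were).

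Some log2 changes reversed. GSAT_MM was −0.17 under TMM, −0.18 under median scaling and −0.54 with additive terms. IAPEz-int was −0.044 under TMM and −0.052 under median scaling. L1Md_F was −0.037 under TMM, −0.043 under median scaling and −0.050 with additive terms. MMETn-int was −0.60 under both, and between −0.11 (without TKO 2i) and 0.39 (without TKO regular) with 1 library left out. The IAPEy-int difference with DAXX status, 0.17, was −0.59 under TMM, −0.94 under median scaling, and with 1 library left out lay between −0.32 (J1 DAXX-knockout 2i left out) and 0.60 (J1 regular left out), with −0.30 for J1 2i left out. The pairs of libraries within a medium enter the fits through the medium term, and the fits with no medium term above are those without the pairing.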

Other observations

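Of the 5 matched loci on chromosome Y all had more FPKM in TKO in both media, with a median difference in log2(FPKM + 1) of 1.02 in regular medium and 0.57 in 2i, and 1 was called. On the autosomes the medians over matched loci lay between −0.13 and 0.19 in regular medium and between −0.21 and 0.05 in 2i. Chromosomes 1, 6, 7, 8, 11, 14 and 19 had medians below 0 in both media. Over all 10733 tested loci, 3136 were lower in TKO in both media and 2758 were higher in both. On chromosome 14, 156 of 384 loci were lower in TKO in both media and 57 were higher in both. On chromosome 8, 265 of 618 were lower in both and 128 were higher in both. Over all loci 71 were called, of which 7 were among the 358 on chromosome X and 7 among the 427 on chromosome 15.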
